A study of Mus musculus with 51 samples.

Results

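Total homogenate of the mouse prefrontal cortex was compared between mice exposed to chronic intermittent ethanol vapor (CIE) and air-exposed control mice. The libraries were chosen by their labels, treatment and preparation, and they number 17 of the 51 libraries of the series, 8 control and 9 CIE, with 1 library per mouse. The same 17 mice also gave an astrocyte and a microglia preparation. All mice were C57BL/6J. Mice in the CIE group inhaled ethanol vapor for 16 h per day in 4 weekly cycles and were injected before each entry with ethanol (1.6 g/kg) and with pyrazole (1 mmol/kg), which blocks alcohol dehydrogenase, and control mice sat in the same kind of chamber with air, saline and the same pyrazole dose. Effects of pyrazole are therefore carried by both groups. After perfusion, the homogenate was set aside as a small portion of the minced tissue, before enzymatic dissociation, removal of myelin and selection of cells on beads. Passive vapor exposure gives high blood alcohol without a choice to drink, which limits what the groups model.

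The prefrontal cortex is built of excitatory pyramidal neurons and inhibitory GABAergic interneurons together with astrocytes, oligodendrocytes, microglia and vessels, and RNA of a homogenate is a mixture from all of them. Ethanol acts on GABA-A and NMDA receptors of neurons, is oxidized by enzymes that generate reactive oxygen, and is known to activate the stress axis and innate immune genes. In such bulk RNA, fewer cells of a type and less RNA per cell cannot be told apart.

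The homogenate carried the neuronal RNA that its label calls for. On a scale shared by all 51 libraries, Snap25, a membrane protein of synaptic vesicle fusion, averaged 1519 ± 342 CPM (SD, n = 8), where CPM is the usual depth-normalized count, scaled to a fixed library total after TMM normalization, in control homogenate against 34.5 ± 30.7 in control astrocytes and 42.0 ± 25.5 in control microglia. Syt1, the calcium sensor of vesicle release, averaged 1568 ± 131 against 24.5 ± 24.9 and 34.0 ± 22.4. Glial and vascular markers were present as well, with Aqp4 of astrocytes at 162 ± 24.7 CPM, Cx3cr1 of microglia at 102 ± 13.3 and Cldn5 of endothelium at 65.4 ± 13.01. Counts assigned to genes ranged from 5247210 to 15594154 in control and from 5042926 to 14078198 in CIE homogenates. Values below are CPM scaled within the 17 homogenates.

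At a Benjamini-Hochberg adjusted p under 0.05 from the quasi-likelihood test of edgeR, 35 of 13982 genes (0.25%) differed between CIE and control homogenate. Higher genes numbered 27 (0.193%) and lower genes 8 (0.0572%). Among the higher genes were 7 of the list of interferon-stimulated genes, 4 glucocorticoid-responsive genes and 3 of the metallothionein and antioxidant list, and the lower genes included 2 of the Notch list, Hes5 and Nrarp. Rises above 1 on the log2 scale were seen for 10 genes and falls beyond -1 for 2. In 10 of the 35 the lowest mouse of one group lay above the highest of the other, and 13 of all 13982 genes (0.093%) had such separate groups. Without an adjustment, 1286 genes (9.2%) had a p under 0.05. The count of called genes depended on single mice and on the model, with 15 genes without control mouse 20 or 35, 17 without control mouse 22, 18 without control mouse 36 and 22 without control mouse 03. It was 71 without CIE mouse 41, 53 without CIE mouse 39 and 7 without the mice numbered under 10. DESeq2 called 204 genes, each of the 35 among them. In every one of 17 fits without 1 mouse, 13 genes stayed past the threshold. Mouse numbers fall into the ranges 03 to 08, 19 to 26 and 35 to 41, whose meaning the labels do not give. For each of the 35 genes the difference between CIE and control means had the same sign within all 3 ranges. The genes were picked from these same mice and no share over all genes is given, so this is descriptive.

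**Figure D1:**
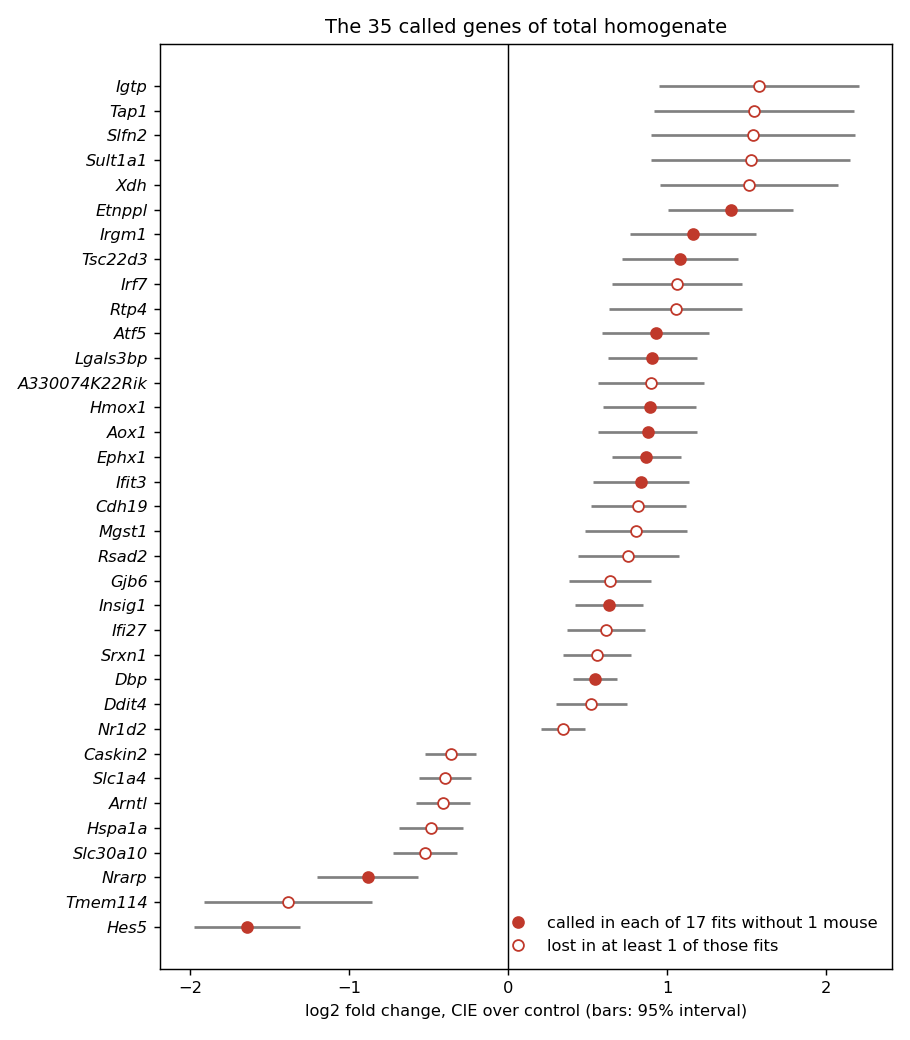
Log2 fold change of CIE over control homogenate (horizontal axis) for the 35 called genes, with 95% intervals as bars. Filled points mark the 13 genes called in each of 17 fits without 1 mouse, with Hes5 lowest at -1.65, and open points mark genes lost in at least 1 of those fits, among them Igtp, highest at 1.58.

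Of 38 measured genes of the Notch list 2 were called, Hes5 and Nrarp, both lower. Notch receptors are cleaved on contact with ligands of neighboring cells, and the freed intracellular part joins the DNA-binding protein RBPJ at target genes. Hes5, a transcriptional repressor and direct Notch target, lies at chr4:154960923-154962371 on the plus strand (mm10), where an annotated gene on the opposite strand, Gm20421, overlaps it. It ranged from 16.8 to 23.7 CPM (median 20.0) in control mice and from 3.70 to 8.48 CPM (median 6.83) in CIE mice, and the groups were far apart, with CIE mice 26, 25 and 23 lowest. Its log2 fold change was -1.65 (95% interval -1.98 to -1.31, adjusted p = 4.58e-05). Nrarp, a Notch target that feeds back on the pathway, ranged from 15.7 to 23.9 CPM (median 19.7) in control and from 6.48 to 15.0 CPM (median 10.4) in CIE mice, and here too the groups stayed apart. Its log2 fold change was -0.89 (95% interval -1.20 to -0.57, adjusted p = 0.0164). The list's median log2 fold change of -0.03 lay next to the 0.01 of all genes. The ligand Dll4, expressed by endothelium, had -0.88 (95% interval -1.33 to -0.43) and did not pass (adjusted p = 0.0998). Notch1 had -0.24 and Hes1, another target of the pathway, -0.03, and neither passed.

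The promoter of Hes5 is shown because it holds the letters GTGGGAA of the RBPJ motif on both strands, starting 226 and 83 bases before the gene start. It is followed by the promoters of 2 interferon-induced genes described further on, with the interferon-stimulated response element, searched as GAAA, any 2 bases and GAAA again on both strands, in capitals. The windows cover 250 bases before to 50 bases after the start, are read 5′ to 3′ along the gene, and come from RefSeq on GRCm38.p6, where 29 of the 35 called genes had a window.
Hes5 (chr4:154960673-154960972, plus strand): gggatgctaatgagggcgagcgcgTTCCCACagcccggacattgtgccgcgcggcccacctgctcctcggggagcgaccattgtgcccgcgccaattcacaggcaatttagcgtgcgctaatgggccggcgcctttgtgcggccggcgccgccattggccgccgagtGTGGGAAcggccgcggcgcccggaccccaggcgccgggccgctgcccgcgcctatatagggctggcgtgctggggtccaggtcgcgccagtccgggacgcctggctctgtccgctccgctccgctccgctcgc
Irgm1 (chr11:48871371-48871670, minus strand): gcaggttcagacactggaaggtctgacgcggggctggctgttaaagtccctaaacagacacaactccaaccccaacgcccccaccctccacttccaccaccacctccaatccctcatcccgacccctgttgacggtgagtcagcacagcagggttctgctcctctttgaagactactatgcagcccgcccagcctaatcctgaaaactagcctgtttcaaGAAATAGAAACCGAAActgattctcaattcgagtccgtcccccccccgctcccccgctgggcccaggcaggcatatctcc
Ifit3 (chr19:34583279-34583578, plus strand): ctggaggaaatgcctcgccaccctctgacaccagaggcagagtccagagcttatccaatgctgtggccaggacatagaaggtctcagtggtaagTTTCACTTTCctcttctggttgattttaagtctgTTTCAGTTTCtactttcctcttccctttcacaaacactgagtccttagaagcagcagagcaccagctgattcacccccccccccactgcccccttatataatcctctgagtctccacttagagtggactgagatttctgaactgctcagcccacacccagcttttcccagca
Capitals mark these matches and no other motif. On either strand, the RBPJ letters were found in 6.38% and the interferon letters in 3.44% of 32851 promoter windows of the genome. Matches to the interferon letters overlapped each other in Irgm1, starting 30 and 24 bases before the RefSeq start of its window. That window lies wholly inside the annotated interval of Irgm1, chr11:48861968-48871683 on the minus strand, so the RefSeq start and the annotated gene start differ. In Ifit3 the matches lay 156 and 122 bases before the start. They were also found in Igtp, 34 bases before, and Rsad2, 120 bases before. Etnppl held the RBPJ letters in 1 of its windows, 144 bases before the start. Among the 29 genes the interferon letters were thus in 4 and the RBPJ letters in 2, against 3.99% and 7.25% of all 27025 genes with a window. Other motifs were searched on both strands in the same way, with overlaps between motifs allowed. The antioxidant response element, TGACNNNGC, was in 6 of the 29 genes (13.99% of all genes), the glucocorticoid response element, ACANNNTGT, in 1, Aox1 (7.90%), the E-box, CACGTG, in 2 (8.09%), the heat shock element, GAANNTTC, in 3 (9.04%), and the ROR and REV-ERB element, AGGTCA, in 8 (18.1%). The D-box, TTATGTAA, was in 0 (1.11%).

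Of 30 mature astrocyte genes 2 were called, both higher, and the median of the list was -0.03. Etnppl, an enzyme that breaks down phosphoethanolamine and is used by astrocytes in the brain, ranged from 16.5 to 35.6 CPM (median 25.7) in control and from 46.3 to 114 CPM (median 56.2) in CIE mice, without overlap. It rose by 1.40 on the log2 scale (95% interval 1.00 to 1.79, adjusted p = 0.00178), with CIE mouse 25 highest. Gjb6, connexin 30 of astrocyte gap junctions, rose by 0.64 (95% interval 0.38 to 0.90, adjusted p = 0.0300), from a control range of 56.7 to 76.7 CPM to a CIE range of 74.1 to 153 CPM, and was called in 9 of 17 fits without 1 mouse. Aqp4 had a log2 fold change of -0.28 and Gfap, the intermediate filament that marks reactive astrocytes, -0.17, and neither passed.

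A pair of transporters was lower. Slc30a10, a manganese exporter, ranged from 27.2 to 41.3 CPM in control and from 17.9 to 27.1 CPM in CIE mice, with CIE mouse 06 just under control mouse 37. It fell by 0.53 on the log2 scale (95% interval -0.73 to -0.33, adjusted p = 0.0203). Slc1a4, which carries serine and other small neutral amino acids, fell by 0.40 (95% interval -0.56 to -0.24, adjusted p = 0.0300) and overlapped only through CIE mouse 24 at 90.6 CPM and control mouse 05 at 88.3 CPM.

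Several enzymes were among the higher genes. Ephx1, the microsomal epoxide hydrolase, ranged from 23.9 to 37.9 CPM (median 29.8) in control and from 38.7 to 63.2 CPM (median 56.8) in CIE mice. Its log2 fold change was 0.87 (95% interval 0.65 to 1.08, adjusted p = 0.000502), and CIE mouse 39 stood well below the other CIE mice yet above every control mouse. Aox1, an aldehyde oxidase, ranged from 18.9 to 30.9 CPM (median 24.5) and from 31.6 to 64.4 CPM (median 39.3), again without overlap, with a log2 fold change of 0.88 (95% interval 0.56 to 1.19, adjusted p = 0.0164). Both enzymes were in none of the gene lists.

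Hmox1, heme oxygenase 1, which degrades heme, ranged from 4.78 to 7.27 CPM (median 5.44) in control and from 6.81 to 15.2 CPM (median 10.3) in CIE mice. It rose by 0.89 (95% interval 0.60 to 1.18, adjusted p = 0.00977), and only CIE mouse 39 lay inside the control range. Xdh, xanthine dehydrogenase of purine breakdown, ranged from 6.41 to 15.9 CPM (median 10.4) and from 11.3 to 54.9 CPM (median 22.7), a rise of 1.51 (95% interval 0.95 to 2.07, adjusted p = 0.0185). Its CIE values spread widely, with mice 23, 25 and 26 at 54.9, 47.5 and 42.4 CPM and mouse 39 at 11.3 CPM. Srxn1, which restores oxidized peroxiredoxins, rose by 0.56 (95% interval 0.35 to 0.77, adjusted p = 0.0203). These were 3 of 27 measured genes of the metallothionein and antioxidant list. Of the 27, 26 had a log2 fold change above 0, against 51.86% of all genes tested, and the median was 0.16. Earlier results of these data were known when the list was chosen, so this share is descriptive and no independent test. Mgst1, a microsomal glutathione transferase, rose by 0.80 and Sult1a1, a phenol sulfotransferase, by 1.52, each called in fewer fits without 1 mouse, 10 and 7 of 17. Of 13 measured enzymes of ethanol and acetaldehyde metabolism none was called, and 3 had an unadjusted p under 0.05. The mitochondrial acetaldehyde dehydrogenase Aldh2 had the smallest p among them, with a log2 fold change of 0.31 (95% interval 0.14 to 0.47, adjusted p = 0.129).

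**Figure D2:**
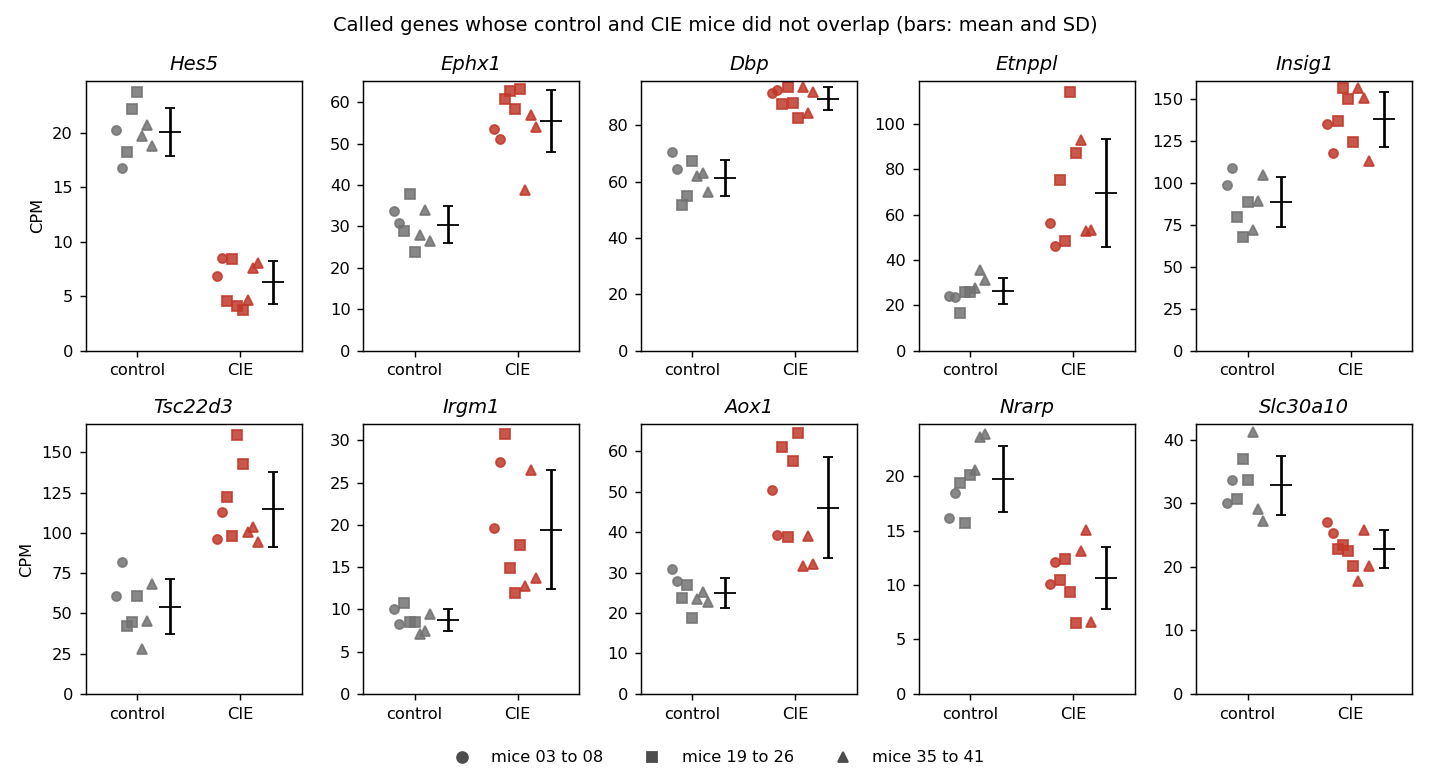
CPM in each mouse (points, shaped by the range of mouse numbers) for the 10 called genes in which control and CIE homogenates did not overlap, with mean and SD beside them. Hes5, Nrarp and Slc30a10 were lower in all 9 CIE mice than in any control mouse, and the other 7 genes were higher in all 9.

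Insig1 was the 1 called gene among 27 of cholesterol synthesis and uptake, whose median was 0.04. Insig1 encodes an endoplasmic reticulum protein that holds back sterol-regulated transcription factors. Its level ranged from 67.9 to 109 CPM (median 88.9) in control and from 113 to 156 CPM (median 137) in CIE mice, without overlap. It rose by 0.63 (95% interval 0.42 to 0.85, adjusted p = 0.0104). Atf5, a transcription factor of mitochondrial and proteotoxic stress that is in none of the lists, ranged from 31.1 to 50.04 CPM (median 39.8) and from 41.5 to 103 CPM (median 73.3), a rise of 0.92 (95% interval 0.59 to 1.26, adjusted p = 0.0164). CIE mouse 39 was the only one within the control range. Of 25 genes of the unfolded protein response none was called, 2 had an unadjusted p under 0.05, and the median was 0.02.

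Hspa1a, an inducible HSP70 chaperone, fell by 0.49 (95% interval -0.69 to -0.29, adjusted p = 0.0301), from a control range of 10.97 to 15.9 CPM to a CIE range of 7.73 to 11.2 CPM, and was called in 2 of 17 fits without 1 mouse. Its near-identical neighbor Hspa1b, with which it may trade reads, had -0.50 (adjusted p = 0.335). It was the only called gene of 31 chaperones, and the list's median was -0.05.

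Cdh19, a cadherin, ranged from 11.3 to 19.9 CPM (median 13.6) in control and from 18.2 to 37.8 CPM (median 22.9) in CIE mice, with CIE mouse 41 inside the control range, and rose by 0.82 (95% interval 0.52 to 1.12, adjusted p = 0.0175). The noncoding transcript A330074K22Rik rose by 0.90 (adjusted p = 0.0185). Tmem114 fell by 1.39 (95% interval -1.91 to -0.86, adjusted p = 0.0203) at very low levels, with a median of 2.70 CPM in control and 0.884 CPM in CIE mice, and Caskin2 fell by 0.36 (adjusted p = 0.0480).

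Of 24 clock genes 3 were called, Dbp and Nr1d2 higher and Arntl lower, and the median of the list was 0.11. In the molecular clock, ARNTL and CLOCK drive the period and REV-ERB genes and the output factor Dbp, and REV-ERB proteins repress Arntl. Dbp ranged from 51.6 to 70.4 CPM (median 62.7) in control and from 82.4 to 93.6 CPM (median 91.5) in CIE mice, a clean separation. Its log2 fold change of 0.54 (95% interval 0.41 to 0.68, adjusted p = 0.000502) had one of the smallest standard errors of the called genes, 0.0659. Nr1d2, which encodes REV-ERB beta, rose by 0.34 (95% interval 0.21 to 0.48, adjusted p = 0.0272), with only CIE mouse 40 within the control range of 77.3 to 94.6 CPM. Arntl fell by 0.41 (95% interval -0.58 to -0.24, adjusted p = 0.0300), from 32.8 to 45.7 CPM in control to 24.8 to 34.9 CPM in CIE mice. Dbp was called in 17 of 17 fits without 1 mouse, Nr1d2 in 10 and Arntl in 5. Per1 had 0.18 and Per2 0.24, neither past the threshold. Per1 moved with the mouse numbers instead, at 132 to 174 CPM in the 6 mice numbered 35 to 41, control and CIE alike, and at 203 to 304 CPM in the other mice.

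Of 34 glucocorticoid-responsive genes 4 were called, all higher, 31 were above 0 and the median log2 fold change was 0.35. Tsc22d3 kept its call in 17 of 17 fits without 1 mouse, Gjb6 in 9, Sult1a1 in 7 and Ddit4 in 4, and none of the 4 was called without CIE mice 23, 25 and 26. Corticosterone binds a nuclear receptor that raises such genes in neurons, glia and vessels. Tsc22d3, encoding the glucocorticoid-induced leucine zipper, ranged from 28.1 to 81.7 CPM (median 53.2) in control and from 94.3 to 161 CPM (median 104) in CIE mice. It rose by 1.08 (95% interval 0.72 to 1.44, adjusted p = 0.0104), and no CIE mouse reached down to the highest control, mouse 05. Ddit4, an inhibitor of mTORC1 signaling, rose by 0.52 (95% interval 0.30 to 0.75, adjusted p = 0.0444), and Gjb6 and Sult1a1 complete the called genes. Counting these 4, 21 of the 34 were higher at an unadjusted p under 0.05, as 5.49% of all tested genes were. The list was chosen with earlier results of these data known, so this share is descriptive and no independent test. Sgk1, a salt- and stress-regulated kinase, had 0.92 (adjusted p = 0.0807), and Fkbp5, a co-chaperone of the receptor, 0.98 (95% interval 0.46 to 1.51, adjusted p = 0.122). These 2 genes were chosen after their values were seen.

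Within the CIE group the levels of these genes were uneven between mice. Fkbp5 was at 92.1, 90.2 and 74.2 CPM in CIE mice 25, 26 and 23 and at 28.8, 27.0 and 28.1 CPM in CIE mice 39, 40 and 41, inside the control range of 19.9 to 40.6 CPM. Hif3a and the lipid droplet gene Plin4, also on the list, were likewise highest in mice 23, 25 and 26 and lowest in 39 to 41 among CIE mice, with Plin4 at 56.1 CPM in mouse 26 and between 2.24 and 2.87 CPM in mice 39 to 41. Tsc22d3 and Sgk1 were less uneven. Tsc22d3 was also highest in mice 25, 26 and 23, at 160.9, 143 and 122.3 CPM, with mice 39 to 41 at 100.5, 104 and 94.3 CPM. Sgk1 was highest in mice 26 and 25, at 157.6 and 152 CPM, with mouse 23 at 91.48 CPM.

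Interferon-induced genes formed the largest called group. Interferons signal through JAK kinases and STAT factors to raise antiviral effectors, GTPases that attack intracellular membranes, and the machinery that loads peptides onto MHC class I. Of 41 measured type I interferon-stimulated genes 7 were called, all higher, 40 were above 0 and the median log2 fold change was 0.68. Of 13 interferon-inducible GTPases 2 were called, 13 were above 0 and the median was 1.42, and of 20 MHC class I and peptide loading genes 1 was called, 20 were above 0 and the median was 0.74. The medians stand against 0.01 over all genes tested, of which 51.86% were above 0. These lists too were chosen with earlier results of these data known, so the values are descriptive.

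Irgm1, a GTPase of the IRG family at chr11:48861968-48871683 on the minus strand, ranged from 7.07 to 10.7 CPM (median 8.50) in control and from 11.96 to 30.7 CPM (median 17.6) in CIE mice, without overlap. Its log2 fold change was 1.16 (95% interval 0.76 to 1.56, adjusted p = 0.0111), and CIE mice 23, 08 and 40 were highest. Igtp, a related GTPase, rose by 1.58 (95% interval 0.95 to 2.21, adjusted p = 0.0272), from a median of 6.21 to 13.7 CPM, with CIE mice 23, 40 and 08 again highest, at 32.8, 30.4 and 27.6 CPM, and mice 25 and 39, at 8.93 and 6.51 CPM, within the control range. Igtp was called in 10 of 17 fits without 1 mouse. It overlaps a relative, Irgm2, on the same strand.

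Lgals3bp, a secreted galectin-binding glycoprotein, ranged from 24.02 to 31.5 CPM (median 26.4) and from 28.3 to 71.3 CPM (median 50.4), with only CIE mouse 41 in the control range, and rose by 0.90 (95% interval 0.62 to 1.19, adjusted p = 0.00575). Ifit3, which binds viral RNA complexes, ranged from 8.29 to 12.3 CPM (median 9.19) in control and from 9.82 to 25.9 CPM (median 16.9) in CIE mice, a rise of 0.83 (95% interval 0.53 to 1.138, adjusted p = 0.0168). Again mouse 41 alone overlapped. Reads of Ifit3 may be shared with its near-identical copy Ifit3b.

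The other called members of the list were low in level, apart from Ifi27 with a control median of 26.2 CPM. Irf7, a transcription factor that drives type I interferon, rose by 1.06 (adjusted p = 0.0216) from a control median of 3.44 to 7.49 CPM, Rtp4 by 1.05 (adjusted p = 0.0272), Slfn2 by 1.54 (adjusted p = 0.0336), Rsad2, the antiviral protein viperin, by 0.75 (adjusted p = 0.0375) and Ifi27 by 0.61 (adjusted p = 0.0272). CIE mouse 41 lay within the control range of Irf7, Rtp4 and Ifi27, mouse 25 within that of Irf7 and mouse 06 within that of Rtp4. Mouse 39 lay within that of Slfn2 and mouse 24 within that of Rsad2. Of 17 fits without 1 mouse, Irf7 and Rtp4 were each called in 12, Ifi27 in 10, and Slfn2 and Rsad2 each in 6.

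Tap1, a subunit of the peptide transporter that feeds MHC class I, rose by 1.55 (95% interval 0.92 to 2.17, adjusted p = 0.0300), from a control range of 4.27 to 8.02 CPM to a CIE range of 6.20 to 35.3 CPM, and lost its call in 10 of 17 fits without 1 mouse. The MHC class I genes themselves did not pass. H2-K1 had 1.42 (95% interval 0.74 to 2.09, adjusted p = 0.0762) and reached 274 CPM in CIE mouse 23, 191 in mouse 08 and 180 in mouse 26, while CIE mice 39 and 41, at 39.6 and 45.3 CPM, lay within the control range of 29.6 to 57.2 CPM. Of 24 cytokine, toll-like receptor and NF-kB genes none was called, 5 had an unadjusted p under 0.05, and the median was 0.11. The NF-kB inhibitor Nfkbia had 0.56 (adjusted p = 0.0661).

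**Figure D3:**
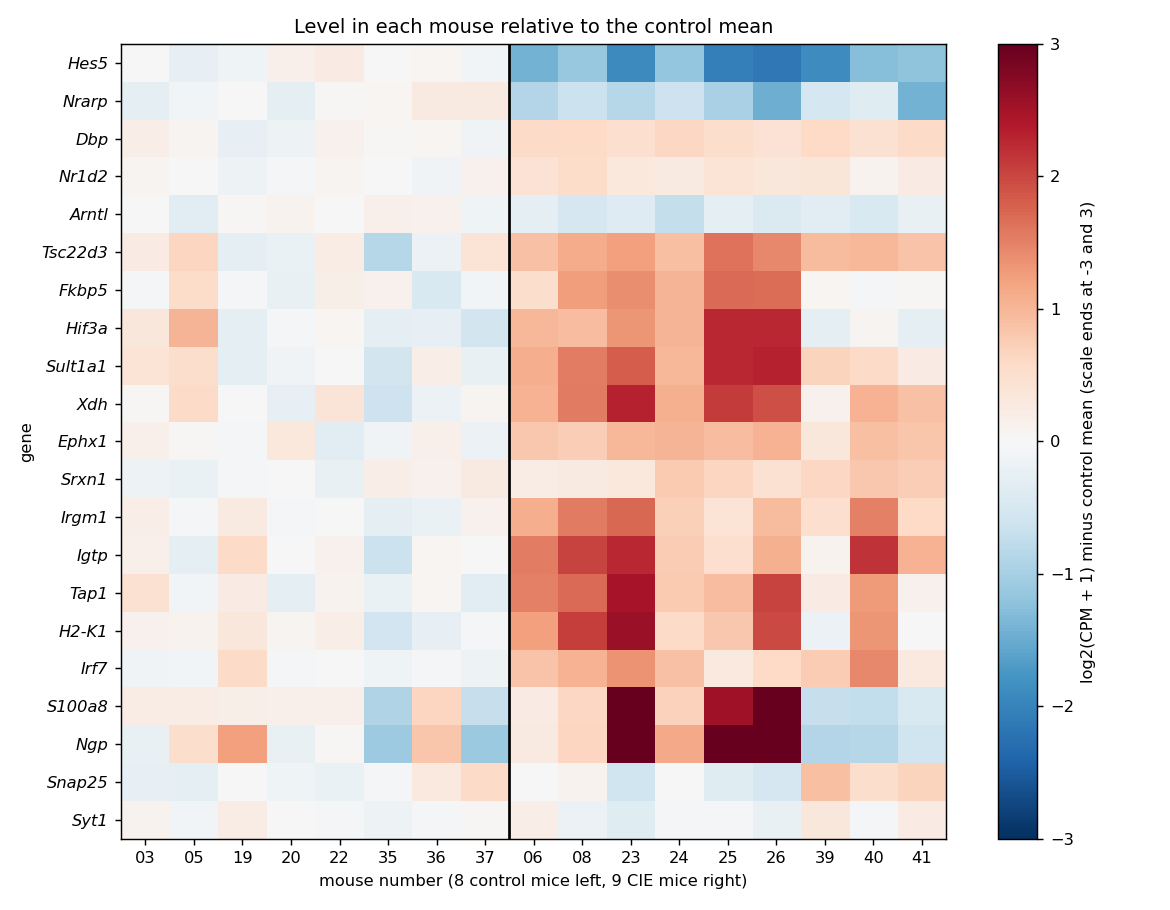
Level of 21 genes (rows) in each of the 17 homogenates (columns, by mouse number), as log2(CPM + 1) minus the control mean, in color from -3 (blue) to 3 (red). Hes5 and Dbp moved in all 9 CIE mice, Fkbp5 and Hif3a were high in CIE mice 25 and 26 and near the control mean in 39 to 41, Igtp was highest in 23, 40 and 08, and the neutrophil genes S100a8 and Ngp were high in 23, 25 and 26.

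The 11 neuronal lists held 257 genes, of which 248 were measured, and none passed at an adjusted p under 0.05 from edgeR. Since 0.25% of all genes tested did, a count of 0 among 248 is near the background. An unadjusted p under 0.05 was found for 24 of them (9.68%), 7 higher and 17 lower, near the 9.2% of all genes. DESeq2 called 2, Cort and Gabra5, and the fit without CIE mouse 40 called Cort. The median log2 fold change over the 248 genes was -0.07, with 172 below 0. Over all genes tested the median was 0.01, with 51.86% above 0. The 95% interval lay within 1 of 0 for 234 genes (94.4%, against 92.9% of all genes) and within 0.5 of 0 for 147 (59.3%, against 68.9%).

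The most abundant of the pan-neuronal markers, Snap25 and Syt1, differed little on average. Syt1 ranged from 1384 to 1821 CPM in control and from 1196 to 1958 CPM in CIE mice, with a log2 fold change of 0.00 (95% interval -0.20 to 0.20). Snap25 ranged from 1225 to 2194 CPM in control and from 973 to 2767 CPM in CIE mice, with a log2 fold change of 0.14 (95% interval -0.28 to 0.55). CIE mice 39, 40 and 41 had the highest and mice 23, 25 and 26 the lowest Snap25 levels of their group.

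Markers of both main neuron classes gave the same picture. Slc17a7, the vesicular glutamate transporter of excitatory neurons, had 0.00 (95% interval -0.19 to 0.19) and Camk2a, the calcium/calmodulin kinase of excitatory synapses, -0.05 (95% interval -0.33 to 0.22). The 20 excitatory neuron markers had a median of -0.03. Gad1, which makes GABA, had 0.11 (95% interval -0.26 to 0.48), and the 20 interneuron markers had a median of -0.03. Pvalb, the calcium buffer of fast-spiking interneurons, had a wide interval, from -0.08 to 1.42. Summed over the 22 pan-neuronal markers, the level ranged from 10290 to 13680 CPM in control and from 8512 to 16070 CPM in CIE mice, so the CIE range enclosed the control range.

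Receptors for transmitters on which ethanol acts were not called either. Among 14 measured GABA receptor subunits the median was -0.07, and the 2 with the smallest p went in opposite directions. Gabra5, an extrasynaptic subunit, ranged from 36.5 to 49.1 CPM in control and from 43.2 to 64.2 CPM in CIE mice (log2 fold change 0.33, 95% interval 0.15 to 0.52, adjusted p = 0.136). Gabra2, a subunit whose gene is known from studies of alcohol dependence, ranged from 34.9 to 50.4 CPM and from 21.8 to 37.8 CPM (log2 fold change -0.42, 95% interval -0.67 to -0.18, adjusted p = 0.175). The groups overlapped for both. Among 17 ionotropic glutamate receptor subunits the median was -0.04. Grin1, the obligatory NMDA receptor subunit, had 0.00 (95% interval -0.22 to 0.22), Grin2b -0.20 and Grin2c -0.40, the last with an adjusted p of 0.318. Grm2, a presynaptic metabotropic receptor, had -0.28 (95% interval -0.49 to -0.07, adjusted p = 0.332), within a list of 7 with a median of -0.13.

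Peptides had the lowest median of the neuronal lists, -0.14 over 33 genes, of which 25 were below 0 and none was called. Cort, the cortistatin of some interneurons, came nearest to the threshold among all neuronal genes. It ranged from 2.86 to 6.43 CPM in control and from 0.303 to 3.25 CPM in CIE mice (log2 fold change -1.27, 95% interval -1.89 to -0.66, adjusted p = 0.0813), with only CIE mouse 40 inside the control range. Cckbr, the cholecystokinin receptor of the brain, had -0.41 (adjusted p = 0.245) and Cck -0.39 (adjusted p = 0.662). Synaptic scaffold and adhesion genes had a median of -0.11, with 28 of 30 below 0 and 5 at an unadjusted p under 0.05, Lrrtm1 with the smallest p (-0.36, adjusted p = 0.180). This median was -0.11 with RLE scaling and 0.02 without CIE mice 23, 25 and 26. Voltage-gated channels had a median of -0.04 over 34 genes.

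Immediate early genes, which neuronal firing induces within minutes, were not called, 28 measured, with a median of -0.09. Fos ranged from 18.4 to 46.1 CPM in control and from 10.9 to 54.4 CPM in CIE mice (log2 fold change -0.25, 95% interval -0.75 to 0.24). Arc had -0.40 (95% interval -0.99 to 0.18) and Egr1 -0.18 (95% interval -0.72 to 0.37), so changes of up to about 2-fold down in Arc lay inside its interval.

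**Figure D4:**
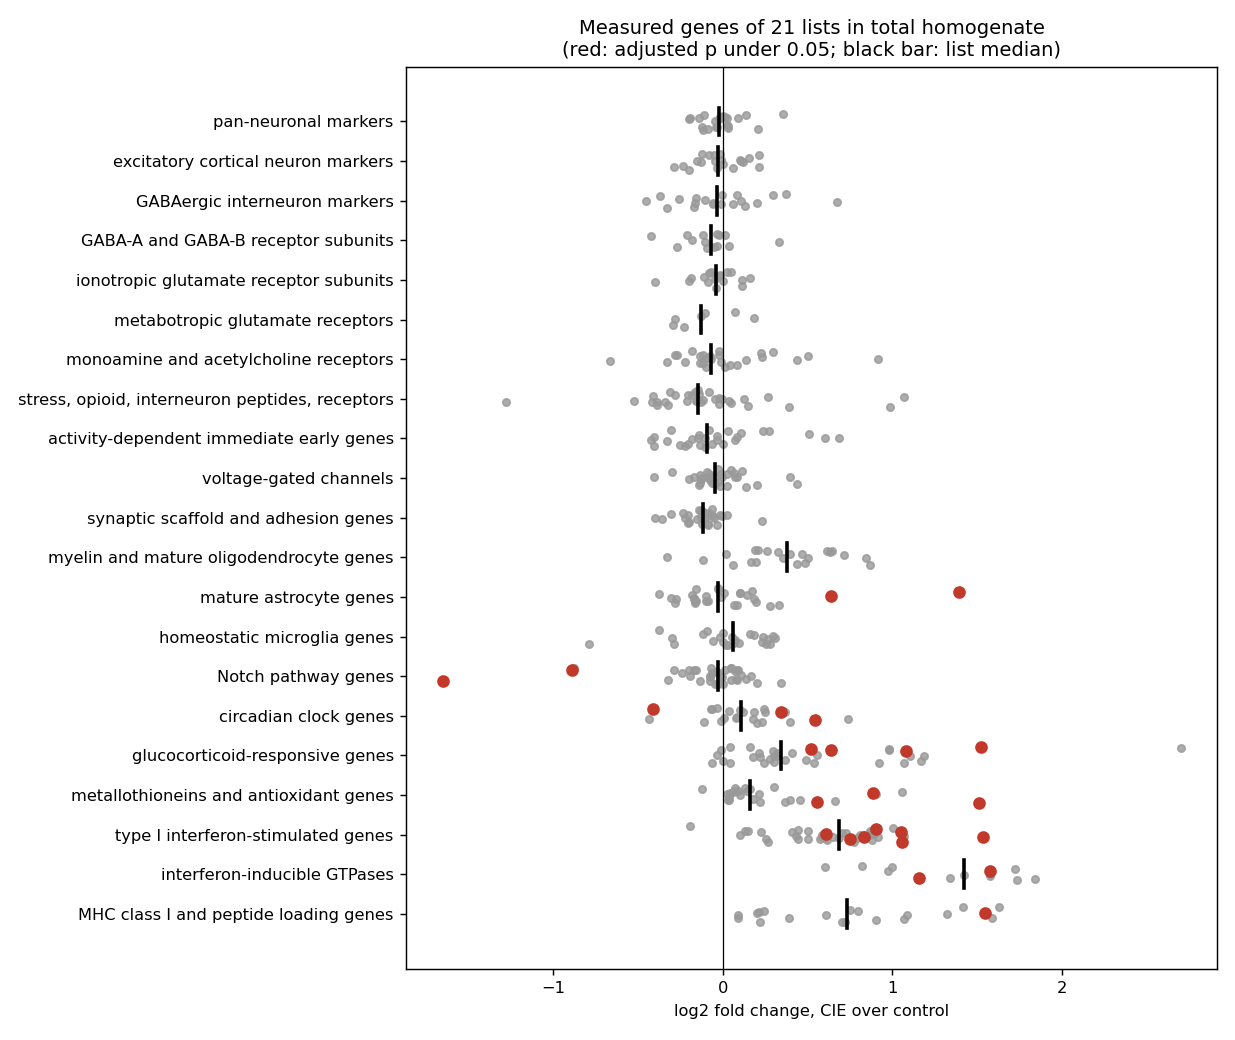
Log2 fold change of CIE over control homogenate (horizontal axis) for each measured gene of 21 gene lists, with called genes in red and list medians as black bars. The 11 neuronal lists at the top have no called gene and medians between -0.14 and -0.02, and the interferon-inducible GTPases have a median of 1.42.

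Other cell types of the tissue were looked at in the same way. Myelin and mature oligodendrocyte genes had a median of 0.38 over 22 genes, 20 above 0 and none called, with 7 at an unadjusted p under 0.05. Mal, a myelin proteolipid, had 0.72 (95% interval 0.24 to 1.20, adjusted p = 0.262), and the summed level of the list ranged widely in both groups, from 1399 to 4770 CPM in control and from 2184 to 6265 CPM in CIE mice. Homeostatic microglia genes had a median of 0.06 over 26 genes. Fcrls, specific to resident microglia, came nearest to a call with -0.79 (95% interval -1.18 to -0.39, adjusted p = 0.0947), and Cx3cr1 had 0.08. Hopx, a homeodomain protein found in astrocytes, and Vegfa, the vascular growth factor, lay just outside the threshold with -0.91 (adjusted p = 0.0527) and -0.70 (adjusted p = 0.0752).

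Blood leukocyte RNA was uneven among CIE mice. Summed over S100a8, S100a9, Lcn2, Ngp and Ltf, genes of neutrophils, the level was 2.18 to 20.3 CPM in control mice and 675, 189 and 90.7 CPM in CIE mice 26, 23 and 25, with the other 6 CIE mice between 3.63 and 22.5 CPM. Of the list of border macrophage, monocyte and neutrophil genes 11 of 21 were measured, none was called, 8 had an unadjusted p under 0.05, all higher, and the median was 1.91. The share of reads outside annotated genes was also highest in mouse 26, 41%, and mouse 23, 34.5%, and among CIE mice lowest in 41, 40 and 39, at 13.1% to 19.3%, against 19.2% to 30.3% in control mice. Hemoglobin genes were at or near 0 counts in both groups. Alas2, of the same blood cell list, had counts in every library, 256 in total in control and 210 in CIE homogenates. CIE mice 23, 25 and 26 were also those with the highest Fkbp5, Hif3a, Plin4, Xdh, Sult1a1, Mgst1 and Aox1, and Snap25 was lowest in them, and the part of leukocyte RNA in these values was not tested. Without these 3 mice, a fit chosen after their values were seen, 11 genes were called, 9 of them among the 35: Dbp, Ephx1, Etnppl, Hes5, Hmox1, Insig1, Irf7, Irgm1 and Lgals3bp. The 3 mice had the highest neutrophil levels, so a lower median of the neutrophil and macrophage list, then 0.07, was set in advance. The median of the interferon-inducible GTPases was then 1.43, of interferon-stimulated genes 0.55, of glucocorticoid-induced genes 0.33 and of myelin genes 0.34. These medians do not test the part of leukocyte RNA.

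The 35 genes were finally compared with the astrocyte and microglia preparations of the same mice. Of the 34 that could be tested there, 19 had their highest mean control CPM in astrocytes, among them Hes5, Etnppl and Slc30a10. Another 11 were highest in microglia, among them Irgm1, Tap1 and Hmox1, and 4 in homogenate, Arntl, Atf5, Srxn1 and A330074K22Rik. Some placements were close, such as Dbp at 70.1 ± 25.1 CPM (SD) in control astrocytes and 61.8 ± 6.65 in control homogenate. Ifi27 was at 61.3 ± 8.71 in control astrocytes and 59.3 ± 14.96 in control microglia. No share over all genes is given for these placements, so the counts are descriptive. In fits of each preparation alone all 34 went the same way in astrocytes and 30 were called there, where 5.13% of genes were. In microglia 28 could be tested, 22 went the same way and 12 were called, against 3.47% of genes. The 35 genes were picked in homogenate of these same mice, which holds RNA of both cell types. No share of all genes going the same way is given, so these counts too are descriptive.

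**Figure D5:**
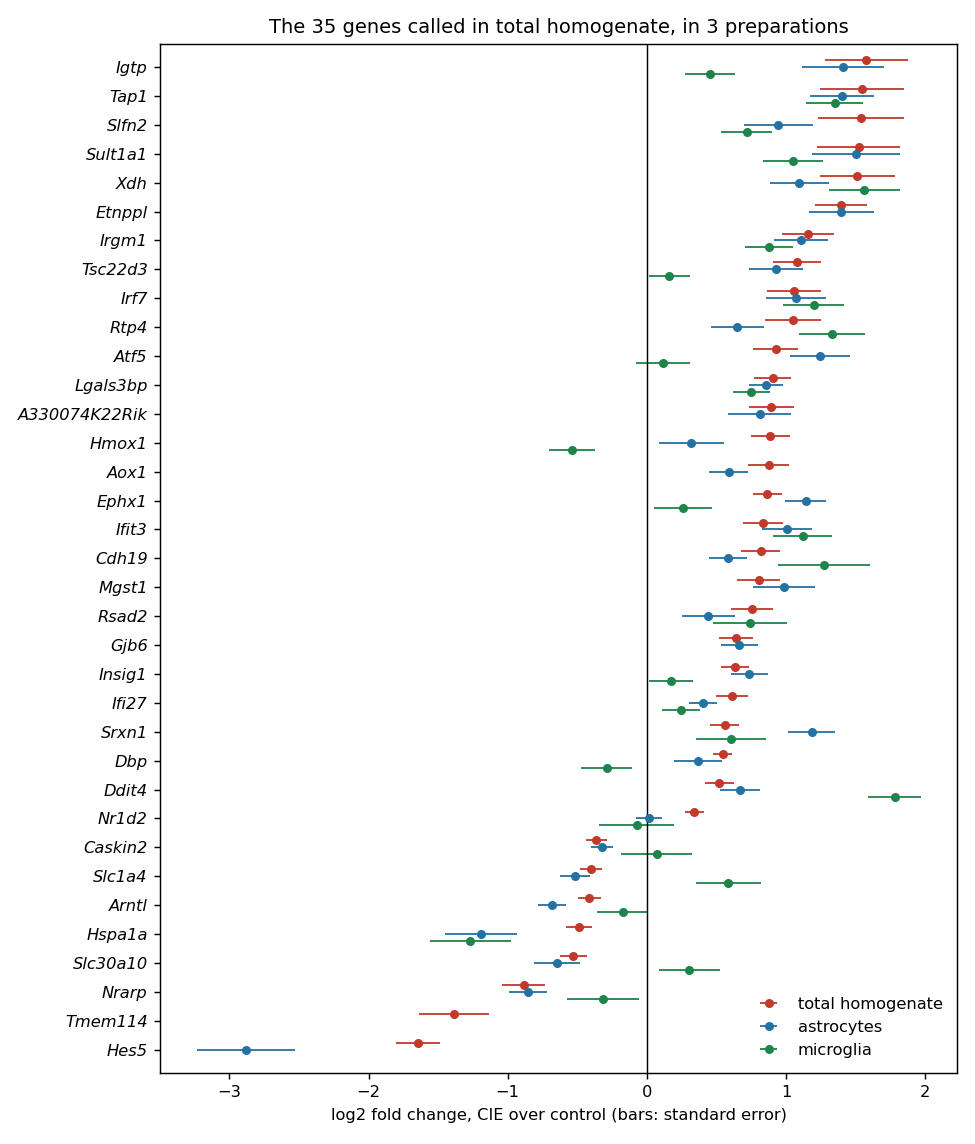
Log2 fold change of CIE over control with its standard error for the 35 genes called in total homogenate (red), in astrocytes (blue) and in microglia (green), each from the fit of that preparation. Points are missing where a gene was not tested, and Hmox1 and Slc1a4 lie on opposite sides of 0 in homogenate and microglia.

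The difference between responses was tested by an interaction term in a model of all 51 libraries. Against astrocytes 1 of 14379 genes (0.00695%) differed, and none of the 35 did. That gene was Otof, which encodes otoferlin, with a difference of -2.12 (standard error 0.401, adjusted p = 0.0395), called in 6 of 17 fits without 1 mouse and not with RLE scaling. Against microglia 119 genes (0.828%) differed, among them 3 of the 35. Hmox1 rose by 0.89 in homogenate and had -0.54 in microglia, a difference of 1.43 (standard error 0.289, adjusted p = 0.00581). Slc1a4 fell by 0.40 and had 0.58 in microglia (difference -0.98, standard error 0.219, adjusted p = 0.0157). Ddit4 rose by 0.52 in homogenate and 1.78 in microglia (difference -1.25, standard error 0.228, adjusted p = 0.00233). Hmox1 and Ddit4 kept this call in 17 of 17 fits without 1 mouse and Slc1a4 in 14. With the mouse as a replicate block Dbp, Tsc22d3 and Igtp also differed from microglia (adjusted p = 0.0160, 0.00245 and 0.0199), which makes 6 of the 35, and none differed from astrocytes. Hes5 was at 1.25 CPM in control microglia, against 20.2 CPM in homogenate and 44.5 CPM in astrocytes on the shared scale. Its fall was -2.88 in the astrocyte fit, and the responses did not differ at the threshold (difference 1.20, standard error 0.385, adjusted p = 0.658).

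Hspa1a was at 14.2 CPM in control homogenate, 492.7 in astrocytes and 1787 in microglia, and it fell in each, by 0.49, 1.19 and 1.27. The homogenate was not enzymatically dissociated and the cell preparations were, and the part of dissociation in these Hspa1a levels cannot be told apart from that of cell type.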

How the data were processed

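RNA of 17 homogenates was sequenced after poly(A) selection. Per the submitters' processing notes, the authors used bcl2fastq 2.17, cutadapt 1.8, STAR 2.5.0a on mm10, Picard 1.141 and HTSeq 0.6.1p1, and deposited whole counts for 24421 gene symbols without normalization. Strand setting and annotation release are not given in the sources used here, so the 18 called genes that overlap another annotated gene, Hes5, Nrarp, Dbp, Irf7 and Igtp among them, are uncertain.

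Counts were fitted with edgeR 4.0.16 in R 4.3.3 (TMM, filterByExpr, quasi-likelihood test, Benjamini-Hochberg adjustment, threshold 0.05). The standard error is the log2 fold change over the square root of F. Preparations were compared in 1 model of 51 libraries. Same-numbered libraries come from the same mouse, and their deviations correlated with a median r of 0.112 between homogenate and astrocytes and 0.0394 between homogenate and microglia.

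The members and the 39 gene lists were chosen with earlier results of these data known. Named genes were all called genes, Snap25 and Syt1, and per list up to 3 with the smallest p and, for neuronal lists, up to 3 with the highest levels, with others chosen after their values were seen: Aqp4, Gfap, Cx3cr1, Sgk1, Fkbp5, Hif3a, H2-K1, Hopx, Notch1, Hes1, Per1, Per2, Fos, Ngp, Ltf, Otof and Ifit3b. Other genes within the rule stand only in list counts, and one gene is not reported here. Fits were tested on simulated data. Alternatives included DESeq2 1.42.0, other scalings and filters, a covariate for mouse-number range and leaving out mice.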

Additional observations from a re-analysis of the deposited data

Results flagged for a closer look

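Of the 119 genes whose CIE response in homogenate differed from that in microglia by the interaction term, 4 were among 91 genes looked at here. These were Hmox1, by 1.43 (adjusted p = 0.00581 from edgeR), Ddit4 by -1.25 (adjusted p = 0.00233), Slc1a4 by -0.98 (adjusted p = 0.0157) and Hopx by -1.55 (adjusted p = 0.0437). The difference in Hopx was called in 6 of 17 fits without 1 mouse and not with the mouse as a replicate block (adjusted p = 0.0535). Otof differed from astrocytes by -2.12 (adjusted p = 0.0395).

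One mouse stood far from the others of its group, by Dixon's ratio, in 14 of 182 groups of mice looked at in 91 genes, and chance gives about 5%. Of these, 5 were neutrophil genes in CIE mouse 26, with Lcn2 at 88.5 CPM, S100a8 at 117, S100a9 at 156, Ngp at 163 and Ltf at 150.0, and Ly6c1 was highest in the same mouse at 67.4 CPM. In the CIE group Ephx1 was lowest in mouse 39 at 38.7 CPM and Grm2 highest in mouse 25 at 112 CPM. In the control group Gad1 at 406.5 and Pvalb at 37.2 CPM were highest in mouse 37, Irf7 at 5.95 and Iigp1 at 4.61 CPM in mouse 19, and Hif3a at 16.7 CPM in mouse 05, and H2-D1 was lowest in mouse 35 at 19.4 CPM.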

How the results depend on the processing

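RLE scaling, no filter on low counts and a read in every library gave 32 to 36 called genes. DESeq2 gave 204 genes (162 higher, 42 lower), a covariate for mouse-number range 81 (59 and 22), dropping the mice numbered under 10 gave 7 (6 and 1), and dropping CIE mice 23, 25 and 26 gave 11 (10 and 1). Leaving out 1 mouse gave 15 to 71 genes, 12 to 59 higher and 2 to 12 lower. None of the 35 changed sign under any of these. Counted over the called genes and each mouse left out in turn, 430 calls were kept and 165 missed the threshold. Dropping the mice numbered under 10 lost 29 of the 35 calls, dropping CIE mice 23, 25 and 26 lost 26 and dropping the filter 5. Both smaller groups have fewer mice, and other causes were not tested.

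Against astrocytes 0 genes differed with RLE scaling (718 at an unadjusted p under 0.05) and 0 to 2 without 1 mouse. Against microglia the count was 49 to 188 without 1 mouse, with 49 to 78 without mouse 20, 36, 26, 05, 23, 03, 24 or 25 and 188 without mouse 08. With the mouse as a replicate block 1 and 113 genes differed, and among the genes named in the text Dbp, Tsc22d3, Igtp, Hif3a (adjusted p = 0.0250) and Nfkbia (0.0171) gained a call against microglia and Hopx lost it. The block changed no other call of a named gene.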

Other observations

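The remaining gene lists held few calls. Oligodendrocyte precursor genes had a median log2 fold change of -0.06 over 16 genes and none called, with Gpr17, a receptor of cells that are about to form myelin, at -0.59 (95% interval -0.89 to -0.28, adjusted p = 0.110 from edgeR). Reactive astrocyte genes had a median of 0.56 over 23 genes and none called, and the members with the smallest p were the interferon-induced H2-D1 (1.32, adjusted p = 0.0721), Iigp1 (1.84, adjusted p = 0.0998) and Gbp2 (1.57, adjusted p = 0.109). Endothelial, pericyte and smooth muscle genes had a median of -0.02 over 24 genes, with Ly6c1 at 0.70 (adjusted p = 0.142) and the glucose transporter Slc2a1 at 0.51 (adjusted p = 0.236). Perineuronal net genes had a median of -0.04 over 18 genes, with the proteoglycan Ncan at -0.27 (95% interval -0.47 to -0.06, adjusted p = 0.336).

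Genes of neighboring tissue were also counted. No striatal (11 measured, median -0.12), olfactory bulb (8, median 0.35), choroid plexus and ependymal (7, median -0.59) or meningeal gene (12, median 0.32) was called. The summed level of meningeal genes ranged from 118 to 649.6 CPM in control and from 98.8 to 879.6 CPM in CIE mice, and that of choroid plexus genes from 10.97 to 109 and from 7.33 to 56.4 CPM. Hypoxia and glycolysis genes had a median of -0.05 over 30 genes, lipid droplet and fatty acid oxidation genes 0.12 over 24, growth factor signaling genes -0.01 over 23 with Ddit4 called, and monoamine and acetylcholine receptors -0.07 over 27, with the dopamine receptor Drd5 at 0.92 (95% interval 0.20 to 1.63, adjusted p = 0.355).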
